A study of Arabidopsis thaliana with 8 samples.

Results

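Chromatin pulled down with the large GTPase AtGBPL3 was sequenced from whole Arabidopsis thaliana seedlings. GBPL3 peaks gathered in clusters beside the centromeres of chromosomes 2 and 4, and a much smaller cluster lay beside that of chromosome 1. Described here are 5 of the 37899 nuclear genes in the gene table, all in or beside these clusters: the protein-coding AT1G40104, AT2G07981 and AT2G08986 and the pseudogenes AT4G06700 and AT4G06708. They were chosen by the measured GBPL3 peaks, that is, by a cluster peak of both replicates in the gene body or within 1 kb of it, so their GBPL3 values are given as a description, with no test. A peak is a stretch where the authors' caller found more pulled-down DNA than in the local background; its fold is that caller's ratio at the summit, the point of highest signal, and its −log10 q grades the call after correction for multiple testing. Fold and −log10 q are the authors' values and rank a peak only within its own list.

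The pulldowns came from seedlings 7 days after germination, with 2 replicates for each GFP fusion and the same GFP-binding resin throughout. The GBPL3 line was a gbpl3-5 mutant carrying genomic AtGBPL3 fused to GFP under its own promoter (pAtGBPL3::AtGBPL3genomic-GFP, labelled comp2). The H2B line was Col-0 carrying p35S::AtH2B-GFP, a histone driven by the viral 35S promoter, which is active in most tissues. The lines thus differ in promoter and in background as well as in the tagged protein, and no label states that replicates were grown separately, so agreement between them may be technical. The GBPL3 lists held 87 and 81 nuclear peaks in replicates 1 and 2 and the H2B lists 1361 and 8608; the depth behind them is unknown.

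GBPL3 belongs to the guanylate-binding proteins, dynamin-like GTPases known in animals for their part in innate immunity. Plant centromeres consist of long arrays of satellite repeats, flanked by heterochromatin that is rich in retrotransposons and poor in expressed genes. Many pseudogenes annotated there are remnants of such elements. None of the 5 genes carries a symbol or synonym in the gene table, so no function is stated for them here. Of the 27444 protein-coding nuclear genes, the class of AT1G40104, AT2G07981 and AT2G08986, 10374 have a symbol, so most of that class has none either. No such count is given for pseudogenes.

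The main picture was of an unequal set. AT2G08986 carried a row of GBPL3 peaks along nearly its whole length, AT2G07981 and AT1G40104 carried a few, AT4G06700 was touched only at its end, and AT4G06708 had peaks beside it and none in its body. Together the 5 genes had 18 of the 87 peaks of replicate 1 and 14 of the 81 of replicate 2 in their bodies or within 1 kb. Every one of the 14 replicate 2 peaks overlapped a replicate 1 peak, giving 14 regions called in both. A further 4 peaks were listed in replicate 1 alone and 0 in replicate 2 alone. Over both whole lists, 64 of 100 regions were called in both, 21 in replicate 1 alone and 15 in replicate 2 alone. Because the genes were chosen for a peak of both replicates, these counts are no result about them. All 5 genes were called in both replicates, as the choice of genes requires; among all nuclear genes the share so called was 0.103% (39 genes), and among the 7757 genes within 3 Mb of a centromere midpoint 0.232%.

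AT2G08986 was the longest of the 5 at 8403 bp, longer than 99.1% of the protein-coding genes. It had 10 peaks in replicate 1, of which 9 touched the body, and 8 in replicate 2, all in the body. Of its sequence, 43.8% lay under peaks in replicate 1 and 39.2% in replicate 2. The 8 regions called in both replicates made it the gene with the most such regions in the table, and the next 4 genes had 3 each. A longer gene has more room for regions, and those 4 were 372 to 2149 bp long. By share of the body under peaks it did not come first. Other genes called in both replicates had up to 100% of the body under peaks in each. Summits in its body numbered 10 in replicate 1 and 9 in replicate 2. They ran from 11.8% to 97.5% of the gene's length in both, counted from its lower-coordinate end, because the table gives no strand. Neighbouring summits stood 372 to 1275 bp apart in replicate 1 (median 838) and 365 to 1830 bp apart in replicate 2 (median 903.5), the widest gap of replicate 2 falling where a replicate 1 peak had no partner.

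The strongest region of AT2G08986 lay at mid-gene on chromosome 2 (3622454 to 3622781, TAIR10 as in the authors' lists), with folds of 9.61 and 6.27 in replicates 1 and 2 and summits 1 bp apart, at 54.2% and 54.3% of the gene. By −log10 q the region at the upper end of the gene came first (3625847 to 3626484), with 208 in replicate 1, ranking 10 of 87, and 160 in replicate 2, ranking 11 of 81. Its folds were 8.92 and 5.74, and it reached past the end of the annotated gene. After these by fold came the region from 3620875 to 3621322, with 7.94 and 5.13. These 3 regions stood in the same order in both replicates.

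Next in AT2G08986 came 3 regions whose order differed between replicates. The region from 3625169 to 3625403 had folds of 7.04 and 4.1, the region from 3618915 to 3619249 had 6.88 and 4.28, and the region from 3619412 to 3620093 had 6.29 and 4.56. The last of these held 2 summits in each replicate, with folds of 5.75 and 6.29 in replicate 1 and 4.04 and 4.56 in replicate 2. The replicates thus agreed on the paired summits within that interval, which lay 1 and 6 bp apart.

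The lowest folds among the 8 shared regions of the gene belonged to the region from 3623266 to 3623790, with 5.21 and 3.63, and to that from 3621475 to 3621812, with 2.57 and 2.32. This last region lay between stronger ones, had the lowest fold in the whole replicate 1 list (rank 87 of 87), and had the largest shift of a summit at any of the 5 genes, 69 bp. Among the 14 shared regions at the 5 genes its folds came closest to each other, with a ratio of replicate 2 over replicate 1 of 0.901. Listed in replicate 1 alone were a peak at 77.8% of the gene (3624503 to 3624694, fold 4.32) and a peak 861 bp past its upper end (3627321 to 3627504, fold 4.46).

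**Figure D1:**
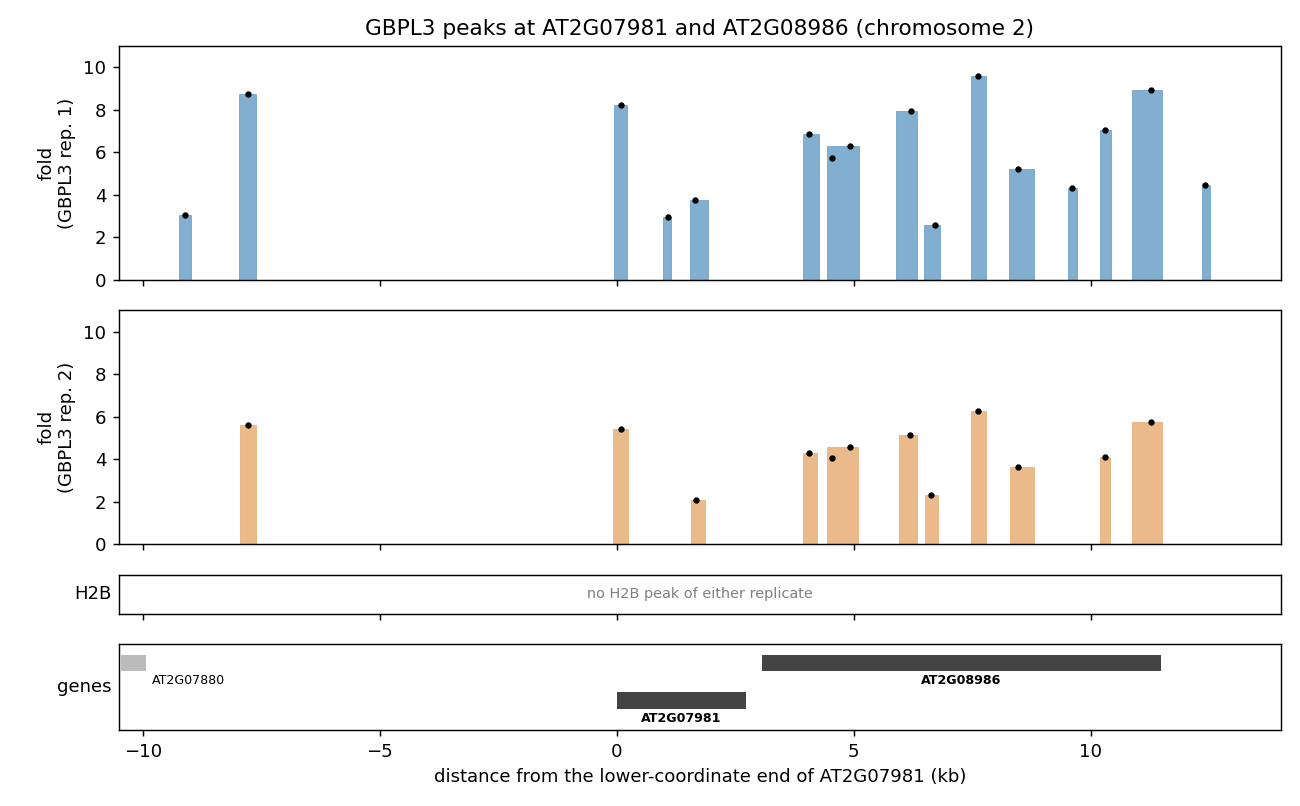
Position (kb from the lower-coordinate end of AT2G07981) against the authors' fold for each GBPL3 peak of replicate 1 (top) and replicate 2 (below); bars span the peaks, dots are summits, dark boxes are AT2G07981 and AT2G08986 and the light box is another annotated gene. The row of 8 shared regions along AT2G08986 recurs in both replicates at lower folds in replicate 2, and no H2B peak lies in the plotted stretch.

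AT2G07981, the neighbour of AT2G08986, is 2731 bp long and ends 341 bp before it. No GBPL3 peak of either replicate touched the space between the genes, and 1995 bp separated their nearest shared regions. AT2G07981 had 3 peaks in replicate 1 and 2 in replicate 2, all touching the body, which put 28.9% and 19.7% of it under peaks. The strong region sat at its lower end (3614904 to 3615215), with folds of 8.23 and 5.44 and summits 1 bp apart at 3.1% of the gene. A weaker region lay past the middle (3616537 to 3616919), with folds of 3.75 and 2.08, the latter fold ranking 81 of 81 in its list. Between them stood a peak of replicate 1 alone (3615956 to 3616139, fold 2.94). Both genes together held 10 of the 11 regions called in both replicates in a cluster of 21754 bp (3605751 to 3627504). The 1 region of that cluster outside them, at 3607026 to 3607374, lay 7612 bp below AT2G07981 and had folds of 8.73 and 5.61.

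AT1G40104 on chromosome 1 is 3942 bp long and stood alone, with the fewest peaks of the 3 protein-coding genes and no other GBPL3 peak within 50 kb. With 2 peaks in replicate 1 and 1 in replicate 2, the gene by itself held a cluster of only 1002 bp. Its shared region (15083536 to 15083844) had folds of 3.17 and 2.27, ranking 63 of 64 by mean fold among all regions called in both replicates. The summits were 8 bp apart, at 44.2% and 44.0% of the gene. A further peak in replicate 1 alone (15084339 to 15084537, summit at 63.3%) had a higher fold, 3.59, and a lower −log10 q, 15.8 against 18.5. Under peaks lay 11.9% of the gene in replicate 1 and 7.84% in replicate 2, all of it around the middle of the gene.

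**Figure D2:**
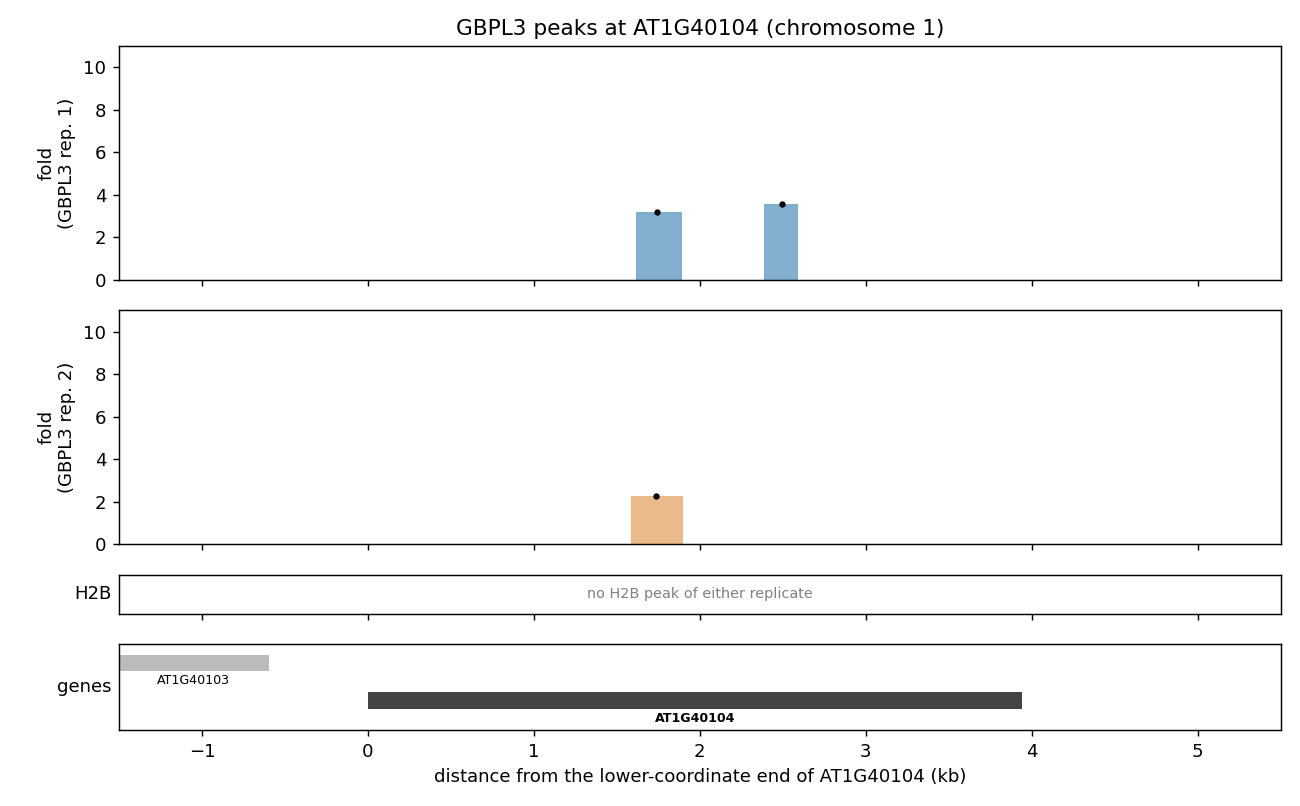
Position (kb from the lower-coordinate end of AT1G40104) against the authors' fold for GBPL3 peaks of replicate 1 (top) and replicate 2 (below), on the same fold axis as the plot of the chromosome 2 genes. The shared peak has folds of 3.17 and 2.27, and the second peak, with a fold of 3.59, appears in replicate 1 alone.

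The pseudogenes of chromosome 4 were beside peaks rather than under them. AT4G06700, 1470 bp long, was overlapped at its upper end by 104 and 103 bp of a wide peak (3950499 to 3952309) in replicates 1 and 2, or 7.07% and 7.01% of its length. That peak was the widest at any of the 5 genes, 1811 bp, and held 6 summits in each replicate. The nearest summit lay 27 and 30 bp past the gene's end, with folds of 5.51 and 3.8. The strongest lay 344 and 341 bp past it, with folds of 7.72 and 5.07. The other 4 summits, from 757 to 1577 bp past the end, had folds of 4.04 to 6.22 in replicate 1 and 2.6 to 4.66 in replicate 2. No summit of either replicate fell in the pseudogene itself.

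AT4G06708, 2712 bp long, had 0% of its body under peaks in every list. A weak region began just past its upper end, 8 bp away in replicate 1 and 20 bp away in replicate 2 (3965644 to 3965936), with folds of 3.66 and 2.86. A stronger one followed at 730 and 748 bp (3966366 to 3966680), with folds of 7.23 and 4.91. Summits of both regions agreed between replicates to 8 and 3 bp. With AT4G06700 it accounted for 3 of the 14 regions called in both replicates in a cluster of 59858 bp (3950499 to 4010356). The strongest region of that cluster, with folds of 9.88 and 6.11 (3953382 to 3953772), lay 2780 bp past AT4G06700 with no gene nearer.

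**Figure D3:**
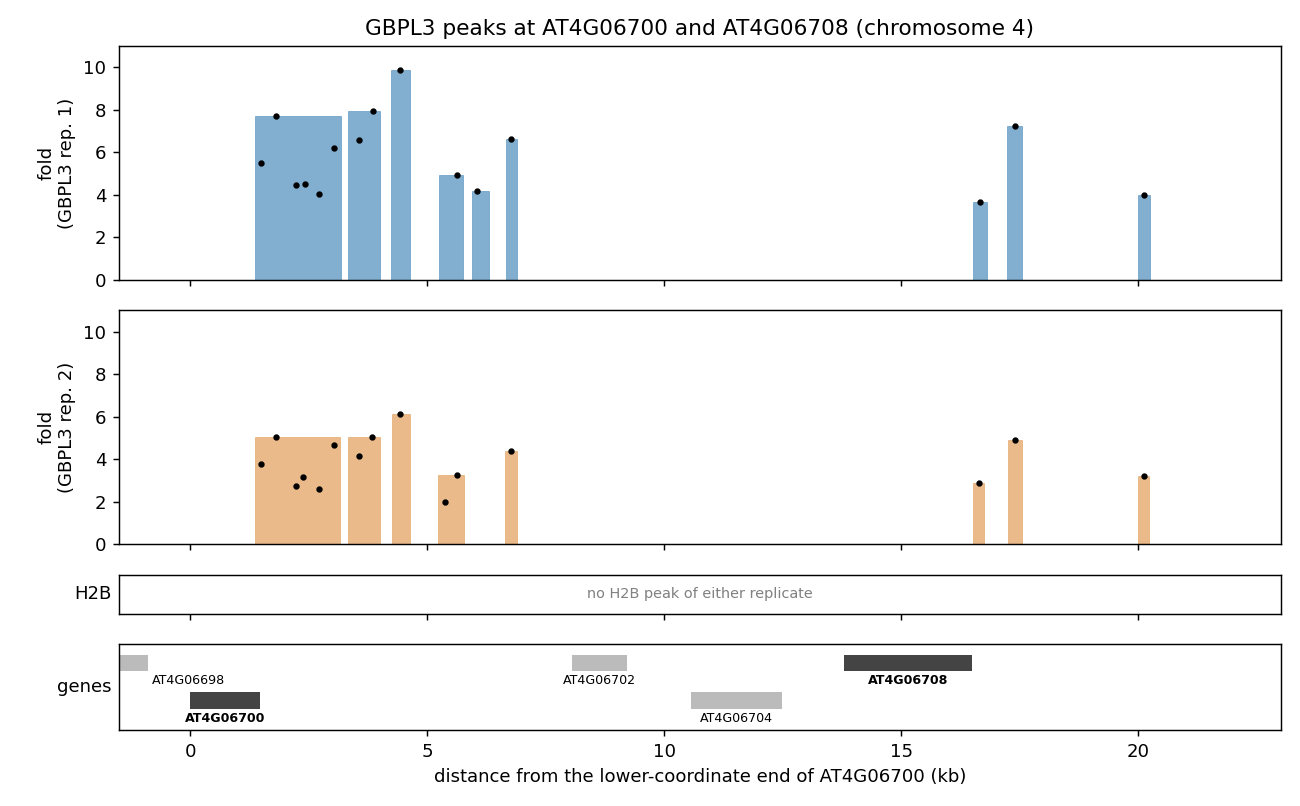
Position (kb from the lower-coordinate end of AT4G06700) against the authors' fold for GBPL3 peaks of replicate 1 (top) and replicate 2 (below) in the lower part of the chromosome 4 cluster; bars span the peaks, dots are summits, and dark boxes are AT4G06700 and AT4G06708. The peaks fall in the spaces past the upper ends of both pseudogenes, and AT4G06702 and AT4G06704 between them have no peak.

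The distance of 1 kb divides near cases. Just inside it were the peaks of replicate 1 that lay 730 bp from AT4G06708 and 861 bp from AT2G08986. Just outside it, AT4G06702 lay 1164 and 1160 bp from its nearest peaks in replicates 1 and 2, and AT4G06710 lay 1243 and 1246 bp away. Within the 3 clusters or 5 kb of them the table holds 14 genes, the 5 described and 9 pseudogenes. Of these 9, AT2G07880 (702 bp away) and AT4G06716 (343 bp away) had a peak within 1 kb in replicate 1 alone, 0 had one in replicate 2, and 0 had a peak in the body. Gene positions came from the assembly TAIR10.1, so distances and percentages assume that it matches the authors' TAIR10 at these places.

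Summit positions recurred between the replicates. Each of the 14 shared peaks held as many summits in replicate 1 as in replicate 2, 20 pairs in all, and the paired summits lay a median of 3 bp apart (0 to 69), 18 of them within 20 bp. Close summits were not particular to these genes. Taking for each region the summit of highest −log10 q, the median distance was 3 bp (0 to 69) in the 14 regions. In the 50 shared regions outside the 5 genes it was 4.5 bp (0 to 969). The authors' folds, whose scale belongs to each list, were lower in replicate 2 in all 14 regions, with ratios of 0.556 to 0.901 and a median of 0.659. The same held outside the 5 genes, where 48 of 50 regions were lower in replicate 2 and the median ratio was 0.663. Median folds were 6.96 and 4.42 in the 14 regions and 6.79 and 4.43 in the 50 others. The regions at the 5 genes reached no higher than 9.61 and 6.27, whereas the others reached 14.2 and 43.8, the latter in a chromosome arm. The 26 other regions within 200 kb of a midpoint reached 9.88 and 6.11, with medians of 5.59 and 3.65. Part of these 26 lay in the same clusters as the 5 genes, among them the region with the highest folds, 2780 bp past AT4G06700. These ranges describe the lists and were not tested.

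**Figure D4:**
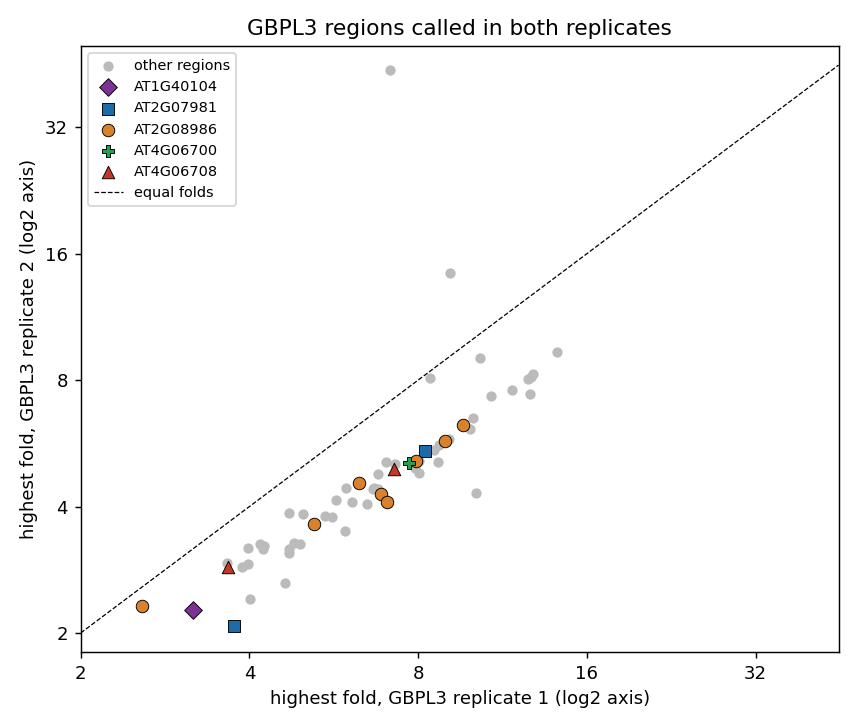
Highest fold in GBPL3 replicate 1 against replicate 2 for the 64 regions called in both (both axes log2), with the 14 regions at the 5 genes in colour and the 50 others in grey; the dashed line marks equal folds. All 14 lie below the line, from 2.57 and 2.32 up to 9.61 and 6.27 at AT2G08986.

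The 4 peaks listed in replicate 1 alone were narrow and near the low end of the values at these genes. Their widths were 184 to 199 bp and their folds 2.94 to 4.46, against 231 to 1811 bp and 2.57 to 9.61 for the 14 replicate 1 peaks with a partner. Their −log10 q of 9.91 to 17.2 lay within the 9.74 to 208 of the shared peaks. Whether their lack of a partner reflects depth was not tested, since the lists give no read counts.

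H2B peaks, which the choice of genes did not use, were missing at all 5. Neither H2B replicate had a peak in the body or within 1 kb of any of them, 0 peaks of 1361 and 0 of 8608. Across all nuclear genes 29.6% had an H2B peak of either replicate and 4.00% of both. Nearer the centromeres the share was lower, 9.59% of genes within 3 Mb of a midpoint and 2.08% of the 384 genes within 200 kb (8 genes), and all 5 genes lie within that last distance. Beside a share of 2.08%, finding 0 of 5 is no result about these genes. The difference from other genes was not tested, because 5 genes in 3 places are not independent.

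The nearest H2B peaks stood far off. From AT2G08986 the closest lay 44.5 kb away in replicate 2 (3670988 to 3671565, H2B fold 1.66) and 154 kb away in replicate 1. AT2G07981 shares those nearest peaks, at 53.3 and 162 kb. For AT4G06708 and AT4G06700 the distances were 109 and 124 kb in replicate 2 and 902 and 888 kb in replicate 1. AT1G40104 was the farthest from H2B in both lists, at 566 kb in replicate 2 and 922 kb in replicate 1. No H2B peak lay inside any of the 3 clusters.

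None of the 14 regions at the 5 genes touched an H2B peak (0 of 14), and 1 of the 26 other regions within 200 kb of a midpoint did. Those 26, and the 38 that follow, include regions of the same clusters that lay away from the 5 genes. In the chromosome 4 cluster only 3 of 14 shared regions were at the 5 genes. No H2B peak lay inside any of the clusters, so the cluster regions among the 26 could not overlap one. Among all 38 other regions within 3 Mb of a midpoint 10 had such an overlap, as did 5 of the 12 in the arms. Counted by genes, 20 of the 34 other genes called for GBPL3 in both replicates had an H2B peak in the body or within 1 kb, among them 12 of the 13 within 3 Mb of a midpoint. Within 10 kb of a ribosomal RNA gene lay 14 of those 20 genes, 9 of those 12 and 19 of all 34, and 0 of the 5 described here. Neighbouring genes can be counted for the same peak, so the 34 are not separate places. The share of all nuclear genes so placed is not given, so 0 of 5 is no result about these genes. These differences were not tested.

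Beyond the peaks, the 5 genes shared sparse surroundings. The table holds 6 to 21 other genes within 50 kb of their centres (median 14), against a median of 33 for all nuclear genes. Many of those neighbours were pseudogenes: 6 of 6 around AT1G40104, 8 of 14 around AT2G07981 and 7 of 14 around AT2G08986. Around AT4G06700 they were 18 of 21 and around AT4G06708 15 of 17. Of the 14 neighbours of each chromosome 2 gene, 6 were protein-coding. The windows of the chromosome 2 genes overlap each other, as do those of the chromosome 4 pseudogenes. Many neighbours are thus counted for both, and the 5 counts are not separate surroundings. No such counts are given for other genes near a centromere, so these surroundings are not shown to be particular to the 5 genes. Length was not shared, since AT2G08986 ranked above 99.1% and AT1G40104 above 87.6% of protein-coding genes, AT2G07981 above 68.6%, and the pseudogenes AT4G06708 and AT4G06700 above 63.5% and 38.8% of their kind. Sequence near plant centromeres is rich in repeats, but no repeat annotation was used for these genes. Whether reads that fit several places were kept is not given in the sources used here. The part of such reads in the peaks was not tested.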

How the data were processed

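Peak lists of 4 pulldown samples were used; the inputs were not analysed here. BWA 0.7.12, MACS2 2.1.0 and the build TAIR10 are named in the submitters' processing notes, without options or control. The authors called peaks per sample. Per the deposited values, column 7 is the fold (a linear ratio), columns 8 and 9 are −log10 p and −log10 q, and the authors' score is the −log10 q times 10, truncated.

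Lines of an identical interval were taken as 1 peak carrying its top fold and −log10 q. A peak was at a gene if it overlapped the body by at least 1 bp or lay within 1 kb. Shared regions were overlapping peaks of both replicates. Clusters joined peaks across up to 50 kb. Centromere midpoints are approximate values carried over from an earlier description of these data and were not measured here. The code was checked on planted peaks (Python 3.11.15).

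Gene positions came from a RefSeq table of TAIR10.1, so no gene coordinates are given. On each chromosome 91.2 to 93.6% of H2B replicate 2 summits lay in protein-coding genes, and 59.8 to 67.9% after moving them by 10 kb.

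Named were the 5 genes and all others within 5 kb of their clusters. Members, lists and alternatives were chosen with earlier results of these data known. No test was run, since the peaks chose the genes and depth is unknown.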

Additional observations from a re-analysis of the deposited data

How the results depend on the processing

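With the gene body alone, 4 of the 5 genes were called in both GBPL3 replicates, AT4G06708 losing its 2 peaks in each, and the totals were 15 and 12 peaks in replicates 1 and 2. With 2 kb to either side the totals were 19 and 15. AT2G07981 then had 5 and 4 peaks, the added ones lying in the body of AT2G08986, and AT4G06700 had 2 in each. Counting summits in the window, or keeping peaks with a −log10 q of at least 5, left 18 and 14 peaks. Requiring an overlap between replicates of 1 bp or of 50% of both peaks left 5 genes called.

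The share of the gene body under peaks of either replicate was 12.9% for AT1G40104, 29.2% for AT2G07981, 44% for AT2G08986 and 7.07% for AT4G06700. Leaving out a replicate gave 7.84 to 11.9%, 19.7 to 28.9%, 39.2 to 43.8% and 7.01 to 7.07%, the lower value each time without replicate 1. For AT1G40104, 7.84% is lower than 12.9% by more than 1.5 times. Windows of up to 5 kb held 0 H2B peaks, and joining peaks across 20 or 100 kb did not change the extent of the clusters. No paired analysis was possible because no result comes from a test. Depth is unknown, so a peak missing from a list was not detectable there at the authors' threshold, which does not show that GBPL3 or H2B was absent.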
